A study of Saccharomyces cerevisiae with 3 samples.

Results

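Ribosome biogenesis factors are the proteins that assemble ribosomes without staying in them. The 50 genes described here were chosen by name, from general knowledge of that process and not by their signals. Earlier results of these data were known when the list and its roles were set. They correspond to 68 of the 6504 single-gene probe sets on the array. Each gene is represented by 1 probe set, so that the list makes up 50 of 5656 measured genes. All 50 symbols matched a RefSeq gene of the same name (assembly R64).

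The samples were 3 independent steady-state cultures of budding yeast, Saccharomyces cerevisiae, and formed 1 group. Glucose limited growth in an aerobic chemostat, a vessel whose feed rate sets the growth rate, here a dilution rate of 0.10 per h at 30 °C and pH 5.0. Each litre of feed contained glucose at 7.5 g, ammonium sulphate at 5.0 g and zinc sulphate heptahydrate at 4.5 mg, with oxygen kept over 80% of air saturation. The labels give no agent, mutation or strain and there was no other condition, so comparisons are between replicate cultures or between gene lists, without a p-value.

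Ribosome assembly starts in the nucleolus on the long rRNA precursor made by RNA polymerase I. Small nucleolar ribonucleoproteins (snoRNPs) modify that RNA and guide its folding, and the small-subunit processome forms on it as it is transcribed. RNA helicases, GTPases and scaffold proteins then remodel the precursors of both subunits, which are exported and finished in the cytoplasm. The genes for these factors form a regulon known in yeast for its dependence on growth rate and nutrients, with Sfp1 and the kinase Sch9 acting as activators and Dot6, Tod6 and Stb3 as repressors.

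The values are linear probe set intensities as the authors deposited them, called signals here. The arrays differed in general brightness, since the median over all probe sets was 30.6, 70.9 and 52.5 in cultures 1, 2 and 3. Levels are therefore given as deposited, and differences between cultures at a common median, meaning that each array was scaled to the same median over the genes that were not dim. Dim genes are those with a mean signal below the 30th percentile of all genes (48.3), and bright genes those above the 90th percentile (589.6). Probe sets differ in how well they bind, so a brighter probe set does not show a more abundant transcript. Each array received material made from 15 µg of total RNA, and messenger RNA per cell was not measured. Sense-strand controls, probe sets without a target in the sample, reached 23.2, 26.3 and 24.2 in cultures 1, 2 and 3. Of the spiked controls, CreX-3 read 1652, 2041 and 1299 and BioDn-3 read 543, 622 and 588. Between cultures 1 and 2 both differed less than the medians did, whereas DapX-3 read 50.6, 106 and 49.1. What set the difference between the arrays was not tested. The ratio of the 3′ to the 5′ probe set of actin, a sign of RNA integrity, was 1.43, 1.27 and 1.23 in the same order. That of SRB4, another control transcript, was 3.42, 3.96 and 3.20. The 5′ probe set of SRB4 read 6.52, 15.9 and 10.2, under the sense-strand control of each array, so the SRB4 ratios cannot order the cultures. The part of RNA integrity in the results was not tested. Genes that glucose represses and genes of hypoxia were read as markers of the condition. Without another condition to compare, their signals cannot verify it. Of the glucose-repressed genes, ADH2, ICL1 and JEN1 were bright at 4931 ± 1178, 665 ± 152 and 2389 ± 801 (mean ± SD, n = 3 throughout), and FBP1 and PCK1 read 238 ± 90.5 and 177 ± 60.7. The hypoxic genes ANB1, DAN1 and AAC3 were dim at 21.1 ± 11.9, 18.8 ± 5.12 and 8.12 ± 1.51.

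Most ribosome biogenesis genes gave signals in the middle of the array's range. Of the 50 genes, 8 were dim (UTP4, UTP6, NOP14, NOP7, NOP12, NOC2, MAK16 and RIO1), against 30.0% of all genes, and 3 were bright (TIF6, NOP58 and NHP2), against 10% of all genes. Both shares of all genes follow from how the limits were set. The other 39 lay between. Signals exceeded the highest sense-strand control of the same array in all 3 cultures for 43 of the 50 genes, against 74.8% of all genes. The remaining 7 were the dim genes other than NOP7, and their values below that control can be nonspecific. The median signal over the 50 genes was 63.1, 177 and 120.0 in cultures 1, 2 and 3, and over all genes it was 54.7, 127 and 96.7. As ranks within each array, which need no scaling, the median gene of the list stood at percentile 54.5, 60.4 and 56.3 in cultures 1, 2 and 3.

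**Figure D1:**
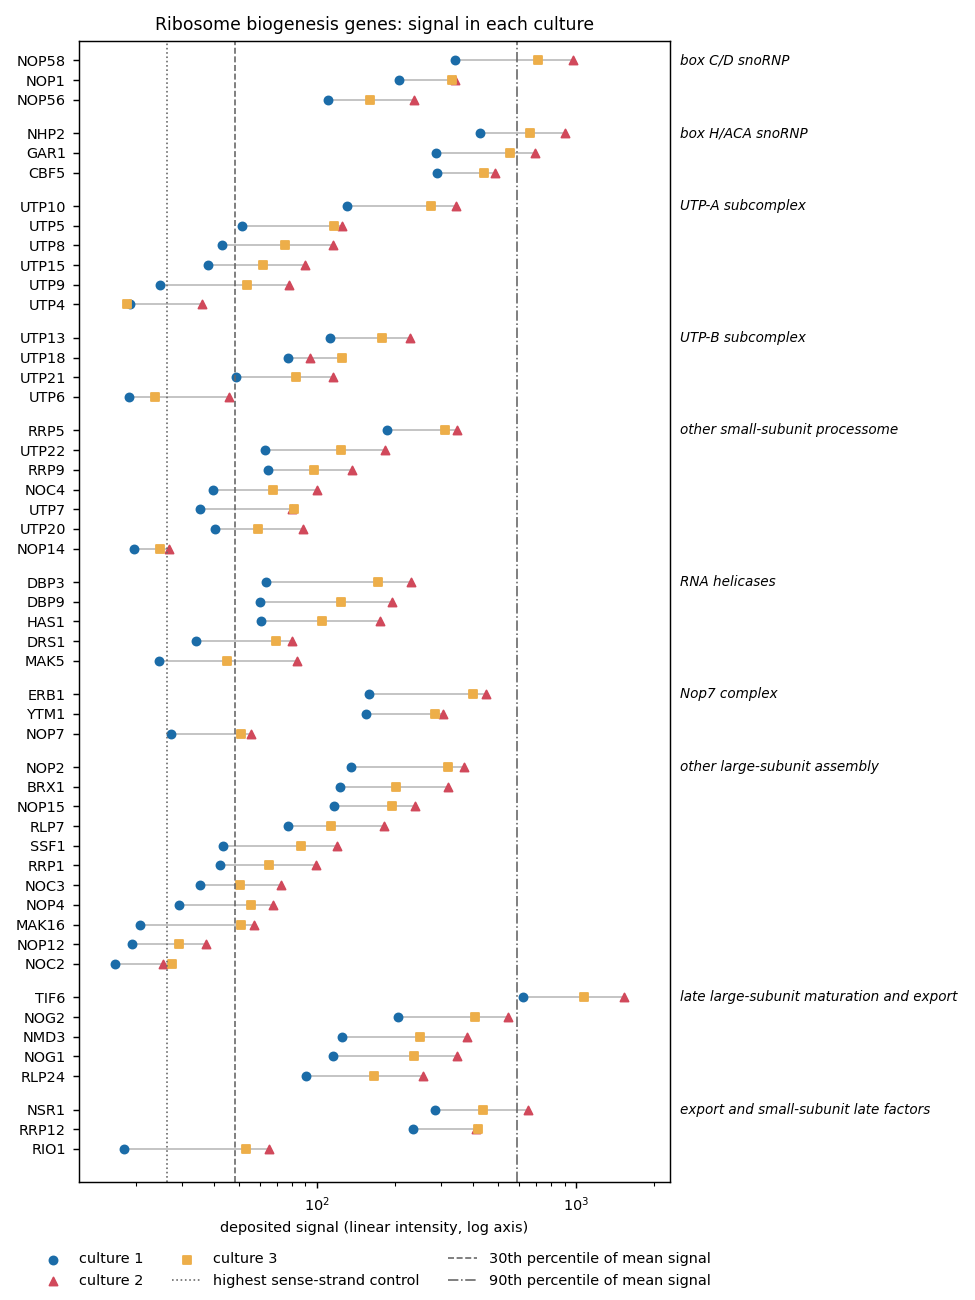
Deposited signal (linear intensity, log axis) of the 50 ribosome biogenesis genes in each of the 3 cultures, grouped by role, with circles, triangles and squares for cultures 1, 2 and 3, grey lines over the range of the 3 values, and vertical lines at the highest sense-strand control (26.3), the dim limit (48.3) and the bright limit (589.6). Culture 2 lies highest for 46 genes and culture 1 lowest for 49.

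Both kinds of snoRNP contributed a bright gene. Box C/D snoRNPs carry out ribose methylation of rRNA. Their core protein gene NOP58 was bright, with signals of 339, 969.6 and 712 in cultures 1, 2 and 3. NOP56, which encodes a related core protein, read 110.2, 236 and 159. NOP1, which encodes the methyltransferase known as fibrillarin in other species, read 206, 340.0 and 332. In these genes culture 1 was lowest and culture 2 highest, and for NOP1 cultures 2 and 3 lay close together. Box H/ACA snoRNPs convert uridine in rRNA to pseudouridine. The gene of their catalytic subunit, CBF5, read 291, 484 and 441, and that of the core protein GAR1 read 288, 692 and 556. NHP2, encoding another core protein, was bright at 426, 902 and 664. These also had culture 1 lowest and culture 2 highest, which is the order of the array medians.

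The UTP proteins build the small-subunit processome on the rRNA precursor. In the UTP-A subcomplex, which binds early and is tied to transcription of the rRNA genes, UTP10, encoding a large scaffold protein, read 129.9, 343 and 274 in cultures 1, 2 and 3. UTP4 was dim at 19.0, 36.0 and 18.5, and it was the only gene of the 50 whose lowest deposited signal was in culture 3. The signals of UTP5, UTP8, UTP9 and UTP15 averaged 97.4 ± 40.4, 77.8 ± 36.3, 52.2 ± 26.6 and 63.2 ± 26.0. All 4 had culture 1 lowest and culture 2 highest. In the UTP-B subcomplex, which joins after UTP-A, UTP6 was dim at 18.8, 45.7 and 23.6. UTP13 read 112, 228 and 178, and UTP21 read 48.4, 115 and 82.9. UTP18 read 76.9 in culture 1, 94.0 in culture 2 and 124 in culture 3. Unlike most genes, UTP18 had its highest signal in culture 3.

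Other processome factors were not bright, and NOP14 was the only dim gene among them. RRP5, encoding an RNA-binding protein needed for both subunits, read 186, 346 and 312 in cultures 1, 2 and 3. RRP9, whose product belongs to the U3 snoRNP, read 64.4, 137 and 97.4, and UTP22 read 63.0, 183 and 124. UTP7, UTP20 and NOC4 averaged 65.4 ± 26.2, 62.5 ± 24.1 and 68.9 ± 30.0. Nop14 works in a complex with Noc4, and NOP14 read 19.6, 26.8 and 24.8. Its culture 1 value lay under the sense-strand control and the other two lay less than 1 unit above it, so differences of NOP14 between cultures cannot be read.

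RNA helicases rearrange RNA in the precursors, and none of the 5 measured here was dim. DBP3 read 63.2, 229 and 172 in cultures 1, 2 and 3, a deposited range of 3.63-fold. DBP9 read 60.2, 195 and 124, a range of 3.24-fold. MAK5, close to the dim limit, read 24.5, 83.5 and 44.7, a range of 3.41-fold. Its culture 1 value lay little above the sense-strand control of 23.2. HAS1, whose product acts on both subunits, read 60.6, 174 and 105, and DRS1 read 34.1, 79.9 and 69.4. In all 5 genes culture 1 was lowest and culture 2 highest. These ranges contain the difference between the arrays, which was 2.31-fold for culture 2 over culture 1 at the median of all genes that were not dim.

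Large-subunit assembly factors included 4 of the 8 dim genes. Nop7, Erb1 and Ytm1 form a complex needed for processing of large-subunit rRNA. ERB1 read 159, 447 and 399 in cultures 1, 2 and 3, and YTM1 read 154, 305 and 284, whereas NOP7 was dim at 27.3, 55.3 and 50.8. Probe sets for proteins of 1 complex thus differed in brightness, which cannot be read as unequal transcript levels. Of 11 further assembly factors, NOP2, encoding an rRNA methyltransferase, read 135, 367 and 321. BRX1 read 123, 319 and 201, and NOP15 read 116, 238 and 194. NOC2 was dim at 16.5, 25.3 and 27.5 and had its highest signal in culture 3. NOP12 and MAK16 were dim as well, averaging 28.7 ± 9.0 and 42.8 ± 19.3. RLP7, whose product resembles a ribosomal protein, averaged 123 ± 52.7. The means of SSF1, RRP1, NOC3 and the RNA-binding protein gene NOP4 were 83.0 ± 37.9, 68.7 ± 28.3, 52.5 ± 18.6 and 50.8 ± 19.7.

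None of the 5 late large-subunit genes was dim, and TIF6 was bright. TIF6, whose product keeps the immature large subunit from joining the small one, read 624, 1521 and 1067 in cultures 1, 2 and 3. The GTPase genes NOG2 and NOG1 read 205, 544 and 405 for NOG2 and 115, 345 and 236 for NOG1. NMD3, encoding the adaptor for nuclear export of the large subunit, read 124, 379 and 249.8. RLP24, encoding a placeholder for a ribosomal protein, read 90.1, 256 and 166. In all 5 the order of cultures was that of the array medians. Of the last 3 genes, NSR1, encoding a nucleolin-like protein, read 285, 651 and 436. RRP12, encoding an export factor for both subunits, read 234, 411 and 415, with cultures 2 and 3 nearly equal. RIO1, encoding a kinase of late small-subunit maturation, was dim at 17.9, 65.4 and 53.0.

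Several probe sets were present for 4 of the 50 genes. For NOG2 they averaged 385 ± 170.4, which was used above, and 156 ± 78.6. At a common median these probe sets deviated from their own 3-culture means by -0.11 and -0.39 on the log2 scale in culture 1 and by 0.04 and 0.36 in culture 3, so they had the same direction and unlike sizes. NOP58 had 3 further probe sets whose letter codes mark possible binding to several transcripts or a mixed probe choice, with means of 1280 ± 560.2, 292 ± 158 and 9.17 ± 3.80. UTP20 and UTP22 had 9 and 5 further probe sets.

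Between cultures, the deposited signals of the list followed the arrays. Of the 50 genes, 46 were highest in culture 2 and 49 were lowest in culture 1, against 85.7% and 94.2% of all genes. The 4 genes highest in culture 3 were UTP18, UTP7, NOC2 and RRP12. Of the 42 genes that were not dim, 36 spanned over 2-fold from culture to culture, against 75.5% of all 3959 such genes. The 6 within 2-fold were NOP1, CBF5, UTP18, RRP5, YTM1 and RRP12, and at a common median all 6 lay lowest in culture 2. That culture 2 lay below culture 1 in these genes follows from how they were picked. The medians used for scaling were 89.4 in culture 1 and 210.4 in culture 2, over 2-fold apart. The count of 36 rested on culture 1: leaving out culture 1 gave 0 genes, leaving out culture 2 gave 12, and leaving out culture 3 gave 36. The median ratio of culture 2 to culture 1 was 2.39-fold for the list and 2.31-fold for all genes that were not dim. For culture 3 over culture 1 it was 1.76-fold and 1.74-fold. Across the 42 genes, which are not replicates, log2 signals of cultures 1 and 2 correlated with Pearson's r = 0.967, those of cultures 1 and 3 with 0.982 and those of cultures 2 and 3 with 0.978. Over all genes that were not dim, r was 0.965, 0.978 and 0.966.

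At a common median, no gene of the list spanned over 2-fold. This count of 0 of 42 stands beside 3.59% of the 3959 genes, and none of the 8 dim genes spanned 2-fold either. The SD of log2 signal over the 3 cultures had a median of 0.15 over the 42 genes, with a range of 0.04 to 0.51, and a median of 0.18 over all genes that were not dim. For 29 of the 42 genes it lay under that median, against 50% of all such genes, a share that follows from the median being the limit. UTP21 had the lowest SD, 0.04, and TIF6, NOP4 and GAR1 each had 0.06. For TIF6 the highest culture exceeded the lowest by 1.08-fold.

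**Figure D2:**
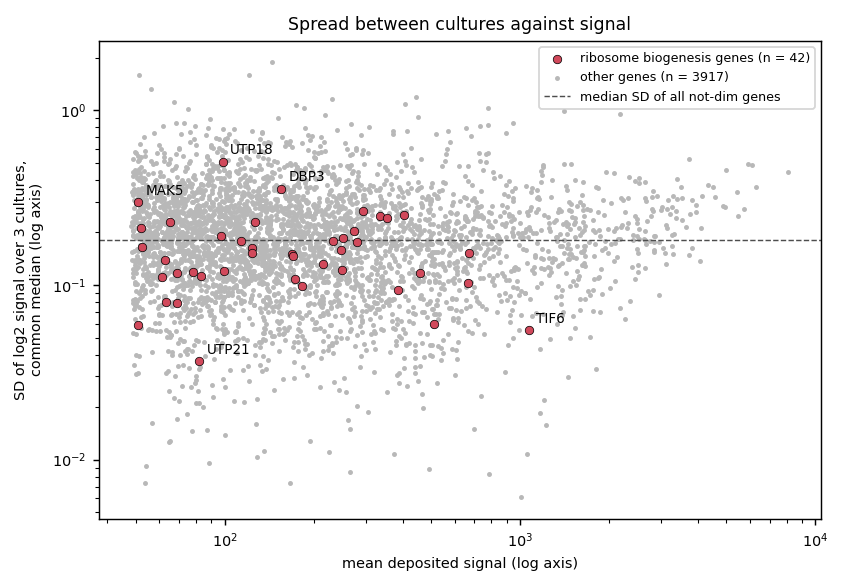
SD of log2 signal over the 3 cultures at a common median (log axis) against mean deposited signal (log axis) for 42 ribosome biogenesis genes that were not dim (red) and the 3917 other such genes (grey), with a dashed line at the median SD (0.18). Of the red points, 29 lie under the line, UTP18 is highest at 0.51 and UTP21 lowest at 0.04.

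UTP18 had the widest range of the list at a common median, although UTP22 was wider, at 0.97, when the probe sets of a gene were averaged. That average included a UTP22 probe set reading 8.36, 17.9 and 0.76, under the sense-strand controls. The UTP22 probe set used elsewhere ranged over 0.30. The log2 deviations of UTP18 from its 3-culture mean were 0.36 in culture 1, -0.58 in culture 2 and 0.22 in culture 3, a range of 0.94, or 1.93-fold. In culture 2 the other UTP-B genes that were not dim, UTP13 and UTP21, deviated by -0.08 and 0.03. Without culture 2 the range of UTP18 was 0.14, and the widest was that of the dim gene UTP4 at 0.87. DBP3 had the next widest range among genes that were not dim, 0.63, with deviations of -0.41, 0.21 and 0.20, and without culture 1 this range was 0.01. Each of these ranges therefore rested on 1 culture. Among dim genes UTP4, NOP14 and RIO1 ranged over 0.87, 0.78 and 0.73, each with at least 1 value under the sense-strand control of its array.

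The median of the list stayed near 0 in every culture. The median deviation of the 42 genes was -0.02, 0.03 and -0.00036 in cultures 1, 2 and 3, against 0.03, 0.0011 and -0.0099 over all genes that were not dim. In culture 1, 19 of the 42 genes lay above their 3-culture mean, against 57.0% of all genes that were not dim. In culture 2 it was 25 of the 42, against 50.2%, and in culture 3 it was 21, against 47.4%. Culture 1 was lowest for 16 of the 42 (28.9% of all genes that were not dim), and culture 2 was highest for 18 of the 42 (35.6%). No culture thus held most of the highest or most of the lowest values of the list.

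Among the roles, helicases and late large-subunit factors had the medians farthest from 0 in culture 2. All 5 helicase genes lay below their 3-culture mean in culture 1, where 57.0% of all genes that were not dim lay above theirs, between DRS1 at -0.06 and DBP3 at -0.41. In culture 2, 4 of the 5 lay above it, against 50.2% of all such genes, the exception being DRS1 at -0.07. The median helicase deviation was -0.19 in culture 1 and 0.21 in culture 2. The culture 1 median was the value of MAK5, read from a signal of 24.5, close to the sense-strand control of 23.2. All 5 late large-subunit genes lay above their mean in culture 2, and 4 lay below it in culture 1, TIF6 lying at 0.0038 there. Their median deviation was -0.11 in culture 1 and 0.17 in culture 2. Under 9 alternative settings that kept all cultures and a scaling, the helicase medians ran from -0.26 to -0.14 in culture 1 and from 0.19 to 0.25 in culture 2, and those of the late factors from -0.18 to -0.10 and from 0.15 to 0.20. One of these settings, which raised scaled signals below 26.3 to that value, left the median of every role unchanged. It therefore could not test these medians. The sizes of the helicase and late-factor medians depended on which cultures were averaged. Without culture 1 the culture 2 median was 0.13 for helicases and 0.076 for late factors, and without culture 2 the culture 1 median was -0.098 for the 4 helicases then not dim and -0.075 for late factors. These roles were picked out after their values were seen.

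Some other roles also had genes on 1 side of their means. In the UTP-A subcomplex 4 of 5 genes lay below in culture 1, where 57.0% of all genes that were not dim lay above. In culture 2, 4 of the 5 lay above, against 50.2% of all such genes. The UTP-A medians in cultures 1 and 2 were -0.13 and 0.05, and their signs held under the same 9 settings. The 3 UTP-B genes that were not dim all lay above in culture 1, against the same 57.0%. Their median was 0.12, although UTP21 turned under some settings. In culture 1, the box C/D genes NOP58 and NOP1 lay on opposite sides of their means, at -0.17 and 0.22. Of the further NOP58 probe sets, those with means of 1280 and 292 deviated by 0.0092 and 0.013 there. The one with a mean of 9.17, under the sense-strand controls, deviated by -0.14. The sign for NOP58 thus depended on the probe set. CBF5, NOP1 and RRP12 lay below their means in culture 2, at -0.26, -0.29 and -0.28. GAR1 and NHP2, which encode partners of Cbf5, also lay below, at -0.02 and -0.04, values whose sign turned under some scalings. Of the UTP-A genes, UTP9 lay furthest below its mean in culture 1, at -0.23, and UTP15 lay at 0.04, a sign that likewise turned. The UTP9 signal there, 24.8, was close to the sense-strand control of 23.2. ERB1 lay at -0.25 in culture 1 and 0.24 in culture 3. NOP2 was much alike, at -0.20 and 0.20. YTM1, which encodes a partner of Erb1, lay at 0.07 in culture 1, where its sign turned under some settings, and at 0.11 in culture 3.

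**Figure D3:**
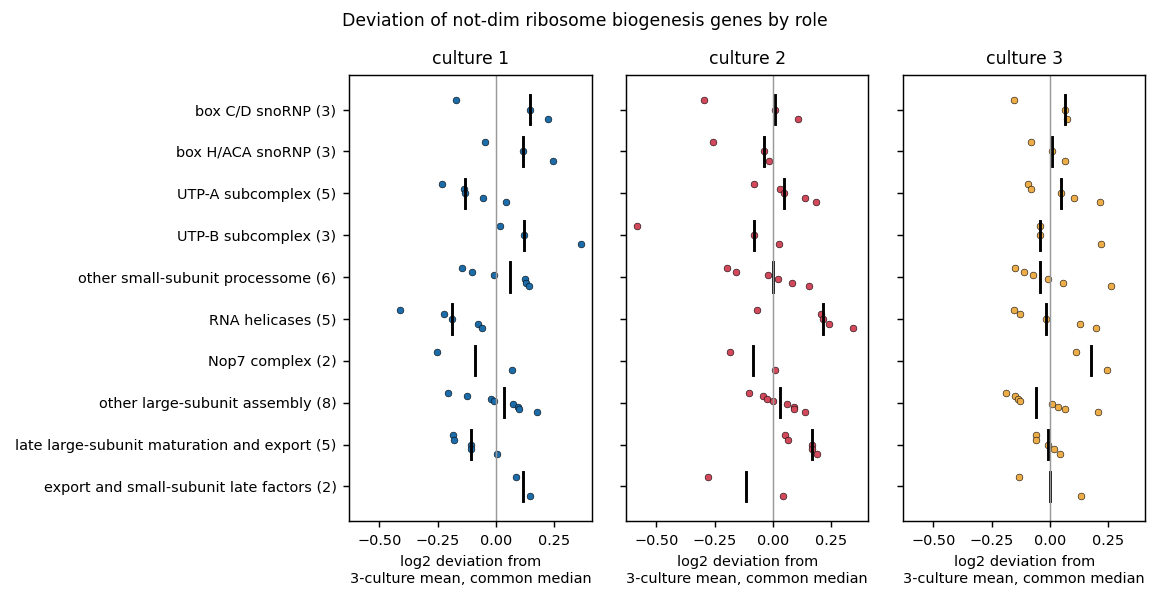
Log2 deviation of each ribosome biogenesis gene that was not dim from its 3-culture mean at a common median, by role (number of genes in brackets), in cultures 1, 2 and 3; points are genes and black bars are medians of a role. The 5 helicases lie left of 0 in culture 1, the 5 late large-subunit genes lie right of 0 in culture 2, and UTP18 is the point at -0.58 in culture 2.

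Other genes of the pathway were read from a list of 101 further ribosome biogenesis factors, of which 99 were measured. Of the 50 genes 3 were bright and 8 dim, with a median mean signal of 118, while of the 99 none was bright and 24 were dim, with a median of 84.1. The highest mean signal of the 99 belonged to RPF2, encoding a large-subunit assembly factor, with 238, 678 and 369.7 in cultures 1, 2 and 3. The lowest belonged to SLX9, encoding a small-subunit export factor, with 10.1, 17.6 and 16.7, all under the sense-strand controls. None of the 75 that were not dim spanned over 2-fold at a common median. For 44 of the 75 the SD lay under the median SD of all genes that were not dim. BUD23, encoding an rRNA methyltransferase, had the largest SD of the 75, 0.52, with deviations of 0.30, -0.60 and 0.31, and like UTP18 it lay lowest in culture 2. The median deviations of the 75 genes were -0.02, -0.02 and 0.03 in cultures 1, 2 and 3.

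RNA polymerase I makes the rRNA that these factors act on. Of 17 genes for its subunits and initiation factors, 4 were dim and none was bright, with a median mean signal of 97.2. RPA190, encoding its largest subunit, read 223, 535 and 388 in cultures 1, 2 and 3, with an SD of 0.03 at a common median. RRN11, encoding an initiation factor subunit, had the lowest mean, 10.9 ± 4.67, under the sense-strand controls. RPA14 read 204, 213 and 238, deviating by 0.60 in culture 1 and -0.58 in culture 2. It was the only gene of the 13 that were not dim to span over 2-fold at a common median.

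Cytosolic ribosomal proteins are what the assembly factors put together with rRNA, and 73 of their 81 measured genes were bright and 1 was dim. Their median mean signal was 1656. RPS21A read 4249, 7616 and 5275 in cultures 1, 2 and 3, on a letter-coded probe set. Whether that probe set also binds the transcript of its near-identical copy was not tested. RPS26A, also read on a letter-coded probe set, had the largest SD among those that were not dim, 0.45, and RPL7A was dim at 10.7, 4.27 and 7.56. Many ribosomal protein genes have a near-identical copy, so these signals are uncertain as measures of 1 gene. In culture 3, 21 of the 42 biogenesis genes and 5 of the 80 ribosomal protein genes that were not dim lay above their mean, against 47.4% of all such genes. The median deviation of the 80 was 0.15, 0.02 and -0.15 in cultures 1, 2 and 3. Its sign in culture 1 depended on scaling, being -0.02 under quantile normalization, while in culture 3 it was -0.06 under that setting. The difference between the lists was not tested, and brightness also differed between them.

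**Figure D4:**
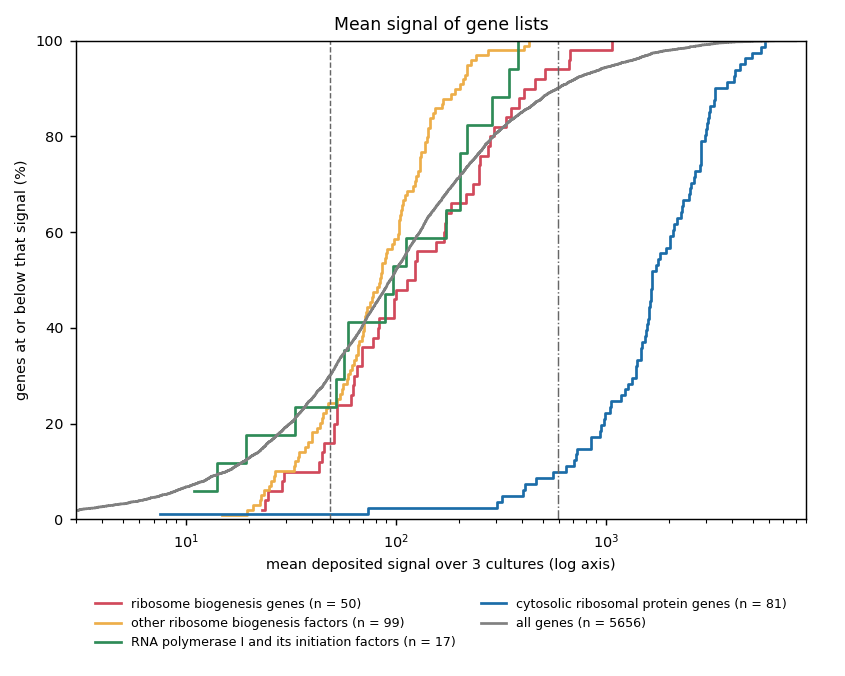
Cumulative share of genes (%) at or below a mean deposited signal (log axis) for the 50 ribosome biogenesis genes, 99 other ribosome biogenesis factors, 17 RNA polymerase I genes, 81 cytosolic ribosomal protein genes and all 5656 genes, with the dim (48.3, dashed) and bright (589.6, dash-dotted) limits. The first 3 lists have medians of 118, 84.1 and 97.2, and ribosomal protein genes lie far to the right with a median of 1656.

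Regulators of these genes were measured as well, and 2 of 10 were dim. Of the activators, SFP1 read 49.6, 139 and 100.0 in cultures 1, 2 and 3, and SCH9 read 93.9, 208 and 144. Of the repressors, DOT6 read 161, 282 and 262 and TOD6 read 61.5, 147 and 113, and STB3 was dim at 34.7, 65.9 and 38.6. The signal of a regulator's transcript does not measure its activity, which for these proteins is known to depend on phosphorylation. Among regulators of ribosomal protein genes, HMO1, CRF1, IFH1 and RAP1 averaged 351 ± 114, 179 ± 74.7, 69.0 ± 35.6 and 63.3 ± 23.1, and FHL1 was dim at 18.9, 46.8 and 31.4. At a common median TOD6 had an SD of 0.02 and IFH1 one of 0.33, the lowest and the highest of the 8 regulators that were not dim.

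In the RefSeq gene order (assembly R64), 7 of the 50 genes had another listed ribosome biogenesis gene as an immediate protein-coding neighbour, against 4.92% of all protein-coding genes. The neighbours were RPF1 for GAR1, RIX1 for UTP9, RSA3 for UTP13, RRP15 for NOC4, RRP3 for SSF1, ESF2 for NOG2 and DBP8 for NMD3, and they are named because they are neighbours, beyond the rule for named genes. None of these neighbours belongs to the 50 genes. In cultures 1 and 2, 3 of the 7 pairs deviated with the same sign in both (UTP9, SSF1 and NMD3 with their neighbours), 3 with opposite signs in both (UTP13, NOC4 and NOG2), and GAR1 and RPF1 with the same sign in culture 1 only. UTP9 and RIX1 deviated by -0.23 and -0.17 in culture 1 and by 0.18 and 0.19 in culture 2. The UTP9 signal in culture 1, 24.8, was close to the sense-strand control. NOG2 and ESF2 deviated by -0.11 and 0.32 in culture 1 and 0.06 and -0.42 in culture 2. RRP5 and NOP12 lay next to the ribosomal protein genes RPS10B and RPS15.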

How the data were processed

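Total RNA of 3 cultures was labelled with biotin and hybridized to 1 Affymetrix array each, per the labels' protocols. The authors deposited 1 linear intensity per probe set, 9335 in all including 60 controls, and the software, per the submitters' processing notes, was GCOS. Summary method, background correction, scaling and version were not stated in the sources used here. The number of arrays limits the precision.

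Platform annotation paired 6504 probe sets with 1 gene. For a gene with several, a probe set named only by digits and _at came first, then the higher mean. Arrays were scaled to a common median over the 3959 genes that were not dim, floored at 1 and taken to log2. Quantile normalization and cyclic loess used limma 3.58.1 in R 4.3.3, and the rest numpy 2.4.6 and pandas 2.3.3 in Python 3.11.15. The steps were tested on simulated data. Other alternatives were log2(signal + 16), a floor at the sense-strand controls, a trimmed mean, no scaling, other limits, the mean over probe sets and leaving out each culture.

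The 50 genes, their roles and the other lists were chosen with earlier results of these data known. All 50 are named, with all regulators and condition markers, and of each other list the genes of highest and lowest mean and largest SD. NOP10 and DBP4 were not measured by a single-gene probe set. Sequences were not used here.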

Additional observations from a re-analysis of the deposited data

Results flagged for a closer look

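Among the control probe sets for ribosomal RNA and the further probe sets of listed genes, which the comparisons above do not use, 7 exceeded the highest sense-strand control on all 3 arrays. Other control probe sets, such as those of spiked transcripts, were not considered for this count. Among the control probe sets for ribosomal RNA, the end product of this pathway, 2 did so. The first probe set for the large-subunit 25S rRNA had a mean signal of 169, with 134, 30.7 and 341 in cultures 1, 2 and 3, an order unlike that of the array medians, and the second for the small-subunit 18S rRNA had 29.6. The share of rRNA carried into the labelled sample and its part in these values were not tested.

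The other 5 were further probe sets of listed genes. Mean signals were 156 for NOG2, 292 and 1280 for NOP58, 60.1 for UTP20 and 76.5 for UTP22. The probe set of UTP22 read 47.8, 131 and 51.0 in cultures 1, 2 and 3, against 63.0, 183 and 124 for the probe set used, and at a common median it deviated by -0.57 in culture 3, where the probe set used deviated by -0.0079. That of UTP20 read 32.5, 87.9 and 59.8, close to the 40.2, 88.1 and 59.2 of the probe set used. The remaining further probe sets of UTP20 were dimmer, with means from 0.66 to 38.4, and none exceeded the sense-strand control on all 3 arrays.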

How the results depend on the processing

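Over 15 alternative settings, 86 of 97 values moved by less than the spread between cultures or genes or, for counts, by no more than 1.5 times. That count does not measure stability. Ranks within an array cannot change when another culture is left out. For median deviations the spread used was 0.15, larger than each main value, so even a change of sign could count as no move. Without scaling, 36 listed genes spanned over 2-fold, and their median deviation was -0.71 in culture 1 and 0.57 in culture 2 with a median SD of 0.66, which by construction contains the difference between arrays. When probe sets of a gene were averaged, the median rank in culture 2 was 56.98, and 10 listed genes were dim and 2 bright. With the dim limit at percentile 10 or 50, dim genes numbered 0 or 21, and with the latter limit 23 of the 29 genes left spanned over 2-fold as deposited. With the bright limit at percentile 75, 15 genes were bright. Leaving out a culture gave 0 to 36 genes over 2-fold as deposited. At a common median the count stayed 0 in every alternative run that kept a scaling. No paired analysis was possible because there is only 1 group. The planned promoter motif counts were not run, since no promoter sequence was used here. Signals under 26.3 carry little information on differences between cultures.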
